A study of Mus musculus with 16 samples.

Results

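The genes described here encode the antigen receptor complex of T cells and the proteins that act directly beneath it. They are the CD3 chains Cd3e, Cd3d and Cd3g, the zeta chain Cd247, the coreceptor Cd4, the kinases Lck and Zap70, and the adaptors Lat and Lcp2. The members were chosen by gene symbol and not by a rule on their measured values, though with earlier results of these data known. Each of the 9 matched 1 entry among the 18138 genes of the arrays. Messenger RNA was measured in D10 T cells, a fast-growing variant of a mouse Th2 clone that was kept in medium with IL-2. Control and Akti1/2-treated cells were compared at 0, 2, 6 and 12 h of stimulation with biotinylated antibodies to CD3 epsilon and CD28 joined by streptavidin, with 2 arrays in each of the 8 groups. Akti1/2 is an allosteric inhibitor of the kinases Akt1 and Akt2, and it was present at 10 µM from 1 h before stimulation. The 0 h groups received no stimulating antibody, and all groups shared the clone and the medium. The control cells are described as untreated in the methods and as solvent-treated in the results of the study. All cells came from 1 clonal line, and whether the 2 arrays of a group came from separate cultures is not stated, so that p-values measure only the spread between these arrays.

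In a resting T cell the antigen-binding receptor chains have no signaling tail of their own, and the CD3 and zeta chains carry the tyrosine motifs through which the signal passes. Lck, held at the membrane and brought to the receptor by CD4, phosphorylates these motifs, and Zap70 docks on them and phosphorylates the scaffolds LAT and SLP-76, the product of Lcp2. Calcium entry, Ras and protein kinase C signals start from these scaffolds, while CD28 delivers a second signal that feeds the phosphatidylinositol 3-kinase and Akt pathway.

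The labelled cell type was checked on its markers. Of 13 T cell markers, 12 were on the arrays and 10 of these were above background on all 16 arrays, whereas Thy1 was above background on none. The 12 are the 9 genes described here with Cd2, Cd28 and Thy1, and 8 of the 10 were from these 9 genes. The Th2 markers Gata3, Il4, Ccr8 and Il1rl1 were above background on all 16 arrays and Ccr4 and Gpr44 on none. All 4 markers of Th1 or Th17 cells, all 5 of myeloid cells, and Cd8a and Cd8b1 were above background on no array. Prf1, which encodes the pore-forming protein of cytotoxic cells, was above background on all 16 arrays, and the B cell gene Ms4a1 on 1. The summed intensity of the 12 T cell markers, which include these 9 genes, was 25946.0 to 34186.7 over the control arrays and 19540.4 to 32441.1 over the Akti1/2 arrays. Arrays of the 2 h Akti1/2 group had the lowest mean intensity (414.2 and 393.8, against 424.1 to 544.0 on the others), before normalization. The part of either measure in the results was not tested.

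The levels below are log2 intensities after background correction on the negative controls and quantile normalization, and they are compared between groups for 1 gene at a time. Levels of different genes are not ranked against each other, and the CD3 genes are compared with each other only in their change within an array. A gene was called changed at a Benjamini-Hochberg adjusted p under 0.05 in limma over the 7395 genes tested, and all 9 members were tested. All comparisons with 0 h share the 0 h arrays. In whole cultures, fewer cells with a transcript and less of it in each cell cannot be told apart.

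Before stimulation, no member was called between Akti1/2-treated and control cells at 0 h, where 0.0541% of all tested genes were, and none had an unadjusted p under 0.05 in limma, against 383 of all genes. After stimulation, calls between Akti1/2-treated and control cells fell on Cd3e at 2 h, on Cd3e, Zap70 and Lat at 6 h, and on Cd3e, Lck and Zap70 at 12 h. These were 1, 3 and 3 of 9 members (11.1%, 33.3% and 33.3%), against 28.4%, 37.5% and 49% of all tested genes, and the members, all of them called lower, stood at or below this background. Calls in that direction alone covered 14.9%, 18.7% and 24.8% of all genes. Differences of the 9 members had a median of -0.09, -0.35 and -0.34 at the 3 times, beside -0.01, -0.01 and -0.02 over all genes.

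**Figure D1:**
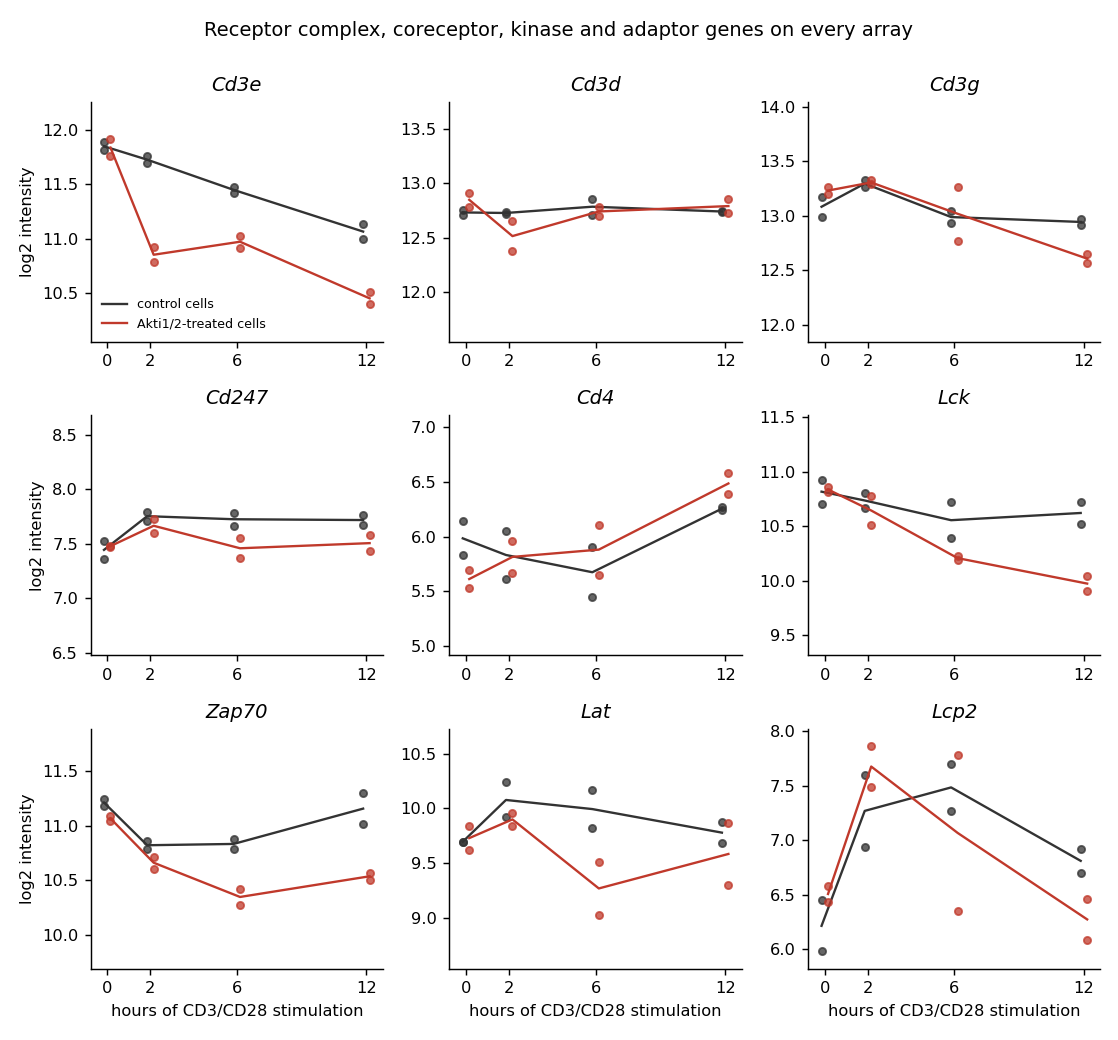
Log2 intensity (vertical axes, each spanning its own range of levels) against hours of CD3/CD28 stimulation for the 9 genes. Each point is 1 array, lines join the means of the 2 arrays of a group, and the Akti1/2 points are drawn slightly to the right. Cd3e with Akti1/2 is at 10.78 to 10.92 at 2 h, below all control arrays of that gene, while Cd3d stays between 12.38 and 12.91 on every array.

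Cd3e, whose product is the CD3 epsilon chain bound by the stimulating antibody, fell in both sets of cells and fell sooner with Akti1/2. In control cells its 2 arrays read 11.88 and 11.81 at 0 h, 11.69 and 11.76 at 2 h, 11.42 and 11.48 at 6 h, then 11.13 and 11.00 at 12 h. With Akti1/2 they read 11.76 and 11.91 at 0 h, 10.92 and 10.78 at 2 h, 11.03 and 10.92 at 6 h, then 10.40 and 10.51 at 12 h. From 2 h on, the Akti1/2 arrays lay below the control arrays of the same time without overlap, and the 2 h Akti1/2 arrays already lay below the 12 h control arrays. In the order of the 8 group means, from 11.85 in control cells at 0 h to 10.45 in Akti1/2-treated cells at 12 h, 4 of 7 pairs of neighbors overlapped, among them the 12 h control and the 6 h Akti1/2 cells.

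In control cells, Cd3e had changed by -0.12 at 2 h (SE 0.11, adjusted p = 0.499 in limma) and had fallen by 0.40 at 6 h (adjusted p = 0.0152) and by 0.78 at 12 h, which is 1.72-fold (adjusted p = 2.12e-04). The 6 h call was lost without replicate 1 or 2 of the 0 h control cells (adjusted p = 0.0988 and 0.0507 in limma) and without 6 h control replicate 1 (adjusted p = 0.0864). With Akti1/2 the fall was 0.98 at 2 h, 0.86 at 6 h and 1.38 at 12 h, which is 1.98-fold, 1.82-fold and 2.61-fold (adjusted p = 4.56e-05, 7.62e-05 and 9.05e-07 in limma). Between 2 and 6 h the Akti1/2 level moved by 0.12 (95% interval -0.11 to 0.35), and from 6 to 12 h it fell by 0.52 (adjusted p = 0.00619 in limma, and 0.0567 without 12 h Akti1/2 replicate 1). Control cells showed a fall of 0.38 from 6 to 12 h (adjusted p = 0.0332 in limma), a call lost without any of the 4 arrays of these 2 groups (adjusted p = 0.0751 to 0.195).

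Set side by side at each time, Cd3e differed by -0.01 between Akti1/2-treated and control cells at 0 h (95% interval -0.24 to 0.22), by -0.87 at 2 h, by -0.48 at 6 h and by -0.61 at 12 h. The last 3 differences correspond to 1.83-fold, 1.39-fold and 1.53-fold lower levels (adjusted p = 1.92e-04, 0.00408 and 4.75e-04 in limma). The 6 h call was lost in a fit of only the groups compared (adjusted p = 0.0585 in limma). Within the 2 chips the differences were -0.77 and -0.98 at 2 h, -0.39 and -0.56 at 6 h, then -0.60 and -0.62 at 12 h. The difference in response, defined as the response of Akti1/2-treated cells minus the response of control cells, was -0.86 at 2 h (SE 0.15, adjusted p = 0.00747 in limma), -0.46 by 6 h (adjusted p = 0.0491), then -0.60 by 12 h (adjusted p = 0.00932). Its 6 h call was lost without any 1 of 13 of the 16 arrays (adjusted p = 0.0576 to 0.162 in limma) and with the replicate number as a block (adjusted p = 0.0609). The Akti1/2 difference at 12 h was not distinguishable from that at 2 h (0.26, 95% interval -0.07 to 0.59).

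The 3 CD3 genes are neighbors on mouse chromosome 9. In RefSeq's annotation of GRCm38.p6, Cd3g lies at chr9:44969572-44980431 on the reverse strand, Cd3d at chr9:44981769-44987052 on the forward strand and Cd3e at chr9:44998735-45009663 on the reverse strand. The 3 genes together span 40092 bases, with 1337 bases between Cd3g and Cd3d and 11682 between Cd3d and Cd3e. The sequences of their promoters are shown because these neighbors took different courses. Each window runs from 250 bases before to 50 bases after the annotated start (RefSeq, GRCm38.p6), 5′ to 3′ on the strand of the gene, and capitals mark the ETS motif GGAAGT or its reverse complement.
Cd3e, chr9:45009562-45009861, reverse strand: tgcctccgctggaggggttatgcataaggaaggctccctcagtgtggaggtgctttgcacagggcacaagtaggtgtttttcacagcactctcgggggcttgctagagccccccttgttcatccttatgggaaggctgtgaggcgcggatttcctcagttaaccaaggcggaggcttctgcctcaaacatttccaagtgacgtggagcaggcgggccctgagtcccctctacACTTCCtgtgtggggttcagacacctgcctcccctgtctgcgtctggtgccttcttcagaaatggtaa
Cd3d, chr9:44981536-44981835, forward strand: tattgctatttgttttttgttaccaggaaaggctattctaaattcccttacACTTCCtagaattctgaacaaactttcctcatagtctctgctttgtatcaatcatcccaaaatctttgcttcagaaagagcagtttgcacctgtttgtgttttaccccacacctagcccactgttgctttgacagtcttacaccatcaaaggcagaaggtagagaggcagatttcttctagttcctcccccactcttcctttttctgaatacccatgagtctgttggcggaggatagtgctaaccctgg
Cd3g, chr9:44980382-44980681, reverse strand: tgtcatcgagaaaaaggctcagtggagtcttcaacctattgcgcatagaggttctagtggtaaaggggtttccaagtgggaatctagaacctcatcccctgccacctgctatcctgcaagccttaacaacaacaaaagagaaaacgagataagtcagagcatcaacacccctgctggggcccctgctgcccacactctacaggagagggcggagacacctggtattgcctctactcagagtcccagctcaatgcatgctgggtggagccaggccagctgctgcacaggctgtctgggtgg

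The letters GGAAGT were found on either strand in the Cd3e and Cd3d windows and not in the Cd3g window. Over the 11 windows of the 8 members listed there, with no entry for Cd4, this motif was in 6, the RUNX motif TGTGGT in 3 and the NFAT motif GGAAAA in 2, and the forkhead motif GTAAACA and the TATA motif TATAAA in none. Of all 32851 windows of the same length, 23.8%, 16.8%, 23.4%, 3.6% and 13.6% hold these motifs in that order, counted on both strands, and none of the 5 motifs contains another. A match is a description of the letters and not of binding.

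Cd3d, which encodes the delta chain, passed no test in control cells. Its control arrays read 12.75 and 12.71 at 0 h, then 12.74 and 12.74 at 12 h, and its group means over all 8 groups spanned 0.33. Changes in control cells were -0.01, 0.05 and 0.01 at 2, 6 and 12 h, with a 95% interval of -0.24 to 0.25 for the last. With Akti1/2 it read 12.91 and 12.78 at 0 h and 12.65 and 12.38 at 2 h, a fall of 0.33 (adjusted p = 0.0351 in limma). That call was lost without replicate 1 or 2 of the 0 h Akti1/2 cells (adjusted p = 0.182 and 0.0641) and without 2 h Akti1/2 replicate 2 (adjusted p = 0.264), and at 6 and 12 h the changes were -0.11 and -0.06. At no time did Cd3d pass the test between Akti1/2-treated and control cells, where its differences were 0.12, -0.21, -0.04 and 0.05. With arrays scaled to the same mean instead, the 2 h difference was -0.36 and was called (adjusted p = 0.0454 in limma).

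Cd3g, which encodes the gamma chain, fell from 0 to 12 h with Akti1/2. Its control arrays read 12.99 and 13.18 at 0 h, 13.32 and 13.27 at 2 h, 12.94 and 13.04 at 6 h, then 12.92 and 12.97 at 12 h. With Akti1/2 they read 13.27 and 13.20 at 0 h, 13.32 and 13.29 at 2 h, 12.77 and 13.27 at 6 h, then 12.57 and 12.65 at 12 h. The 12 h Akti1/2 arrays were the lowest of all 16, and the 2 arrays at 6 h with Akti1/2 were as far apart as 0.50. The fall from 0 to 12 h with Akti1/2 was 0.62, or 1.54-fold (SE 0.14, adjusted p = 0.00346 in limma), whereas in control cells the change was -0.14 (95% interval -0.45 to 0.17). The difference between these changes, -0.48, did not pass the test (adjusted p = 0.0837 in limma), and it passed with arrays scaled to the same mean (-0.57, adjusted p = 0.0183), with quantile normalization without background correction (0.0369), with only the groups compared (0.0342) and without either array of the 6 h Akti1/2 cells (-0.48, adjusted p = 0.0187). The Akti1/2 difference of Cd3g at 12 h, -0.34, did not pass either (adjusted p = 0.0671 in limma), but it passed in 6 of 23 other fits. These were mean scaling (-0.41, adjusted p = 0.0109), quantile normalization without background correction (0.0297), genes detected on all arrays (0.0486), only the groups compared (0.0445) and without either 6 h Akti1/2 array (0.0140).

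When the 3 genes were compared on the same array, Cd3e moved away from both neighbors. The log2 difference of Cd3e minus Cd3d, set to 0 at its mean over the 4 arrays at 0 h, was -0.10 and -0.01 on the 2 h control arrays and -0.78 and -0.65 on the 2 h Akti1/2 arrays. At 12 h it was -0.66 and -0.80 in control cells against -1.51 and -1.27 with Akti1/2. Against Cd3g the same quantity was -0.32 and -0.19 at 2 h in control cells against -1.09 and -1.19 with Akti1/2, and at 12 h it was -0.47 and -0.66 against -0.85 and -0.82. The Akti1/2 arrays thus lay below the control arrays of the same time from 2 h on in both comparisons. These differences within arrays show unequal change of the 3 genes, and they are given without a test.

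**Figure D2:**
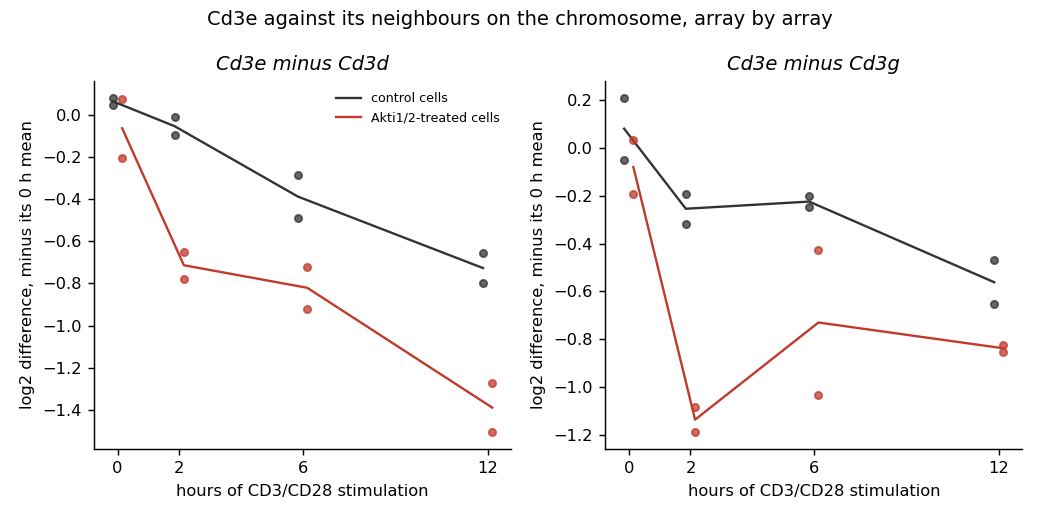
Difference in log2 intensity between Cd3e and Cd3d (left) and between Cd3e and Cd3g (right) on the same array, minus its mean over the 4 arrays at 0 h, against hours of CD3/CD28 stimulation. Each point is 1 array and lines join group means. At 2 h the Akti1/2 points of Cd3e minus Cd3d are at -0.78 and -0.65, below the control points at -0.10 and -0.01.

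The other members lie elsewhere in GRCm38.p6, Cd247 at chr1:165779952-165871153, Cd4 at chr6:124864693-124888247, Lck at chr4:129548344-129573641, Zap70 at chr1:36761798-36782821, Lat at chr7:126363827-126369705 and Lcp2 at chr11:34046928-34092281.

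Cd247, which encodes the zeta chain, was called in none of the 18 comparisons in limma and had an unadjusted p under 0.05 in 4. Its log2 level was 7.36 to 7.80 over the 16 arrays, an intensity 2.00 to 2.71 times the mean negative control, and its group means spanned 0.31. Control cells read 7.53 and 7.36 at 0 h, then 7.80 and 7.71 at 2 h, and the change of 0.31 had an unadjusted p of 0.0178 and an adjusted p of 0.105 in limma. In Akti1/2-treated cells the 6 h change was -0.02 (95% interval -0.27 to 0.23). The difference between treated and control cells at 6 h was -0.27 (adjusted p = 0.0826 in limma), with -0.42 and -0.12 within the 2 chips.

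Cd4, which encodes the coreceptor of helper T cells, was read near background. It was above background on 13 of 16 arrays, at 1.21 to 1.62 times the mean negative control, and 0 h Akti1/2 replicate 2, 2 h control replicate 2 and 6 h control replicate 1 were not above it. At 0 h it read 6.14 and 5.83 in control cells against 5.70 and 5.53 with Akti1/2, and at 12 h 6.27 and 6.24 in control cells against 6.39 and 6.58 with Akti1/2. The rise with Akti1/2 from 0 to 12 h was 0.88 (SE 0.21, adjusted p = 0.00429 in limma) and the change in control cells 0.27 (adjusted p = 0.362). The difference between these changes was 0.60 and did not pass the test (adjusted p = 0.134 in limma), and the Akti1/2 difference at 12 h was 0.23 (95% interval -0.22 to 0.68).

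Lck, the Src-family kinase that starts receptor phosphorylation, fell with Akti1/2 and was not called in control cells at any time. Its control arrays read 10.93 and 10.70 at 0 h, 10.80 and 10.67 at 2 h, 10.72 and 10.39 at 6 h, then 10.52 and 10.72 at 12 h. In Akti1/2-treated cells the arrays read 10.81 and 10.85 at 0 h, 10.77 and 10.51 at 2 h, 10.22 and 10.19 at 6 h, then 10.04 and 9.90 at 12 h. The 6 and 12 h Akti1/2 arrays lay below all other arrays, and the 2 h groups overlapped. From 0 h the fall with Akti1/2 was 0.63 at 6 h and 0.86 at 12 h, or 1.55-fold and 1.82-fold (SE 0.14, adjusted p = 0.00446 and 3.47e-04 in limma). In control cells the 12 h change was -0.20 (95% interval -0.50 to 0.11).

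Between Akti1/2-treated and control cells, Lck differed by 0.02 at 0 h, -0.09 at 2 h, -0.35 at 6 h and -0.65 at 12 h. The 12 h difference, 1.57-fold, passed the test (adjusted p = 0.00218 in limma) and was -0.68 and -0.62 within the 2 chips. The 6 h difference did not pass (adjusted p = 0.0694 in limma), was -0.49 and -0.20 within the chips, and passed with the chip as a block (adjusted p = 0.0284) and without 6 h control replicate 2 (-0.51, adjusted p = 0.0337). The difference in response at 12 h was -0.67 (adjusted p = 0.0214 in limma). It was lost without replicate 2 of the 0 h control (adjusted p = 0.0875), 0 h Akti1/2 (0.0611), 12 h control (0.0842) or 12 h Akti1/2 cells (0.0712). From 2 to 12 h the Akti1/2 difference changed by -0.56 (adjusted p = 0.0499 in limma), a call lost without any 1 of 13 arrays (adjusted p = 0.0528 to 0.161). In Akti1/2-treated cells the fall from 2 to 6 h was 0.44 (adjusted p = 0.0334 in limma), and it was lost without replicate 1 of the 2 h cells (adjusted p = 0.196) or either array of the 6 h cells (0.102 and 0.0887).

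Zap70, the kinase that docks on the phosphorylated receptor, fell in both sets of cells, and at 12 h in control cells its level differed from that at 0 h by -0.06. Its control arrays read 11.25 and 11.18 at 0 h, 10.86 and 10.79 at 2 h, 10.79 and 10.88 at 6 h, then 11.30 and 11.02 at 12 h. With Akti1/2 they read 11.05 and 11.09 at 0 h, 10.72 and 10.61 at 2 h, 10.42 and 10.28 at 6 h, then 10.57 and 10.50 at 12 h. The 2 sets of arrays did not overlap at 2, 6 or 12 h, and at 0 h the Akti1/2 arrays were also the lower ones. Changes in control cells were -0.39 at 2 h (adjusted p = 0.0483 in limma), -0.38 at 6 h (adjusted p = 0.0266) and -0.06 at 12 h (95% interval -0.30 to 0.19). The 2 h call was lost without any 1 of 12 arrays (adjusted p = 0.0530 to 0.225 in limma), and the 6 h call without any of the 4 arrays compared (adjusted p = 0.0616 to 0.143).

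With Akti1/2, Zap70 fell by 0.41 at 2 h, 0.72 at 6 h and 0.53 at 12 h from its 0 h level (SE 0.11, adjusted p = 0.0147, 4.64e-04 and 0.00246 in limma). The 2 h call was lost without either array of the 0 h Akti1/2 cells or 2 h Akti1/2 replicate 2 (adjusted p = 0.0517 to 0.0898). Between Akti1/2-treated and control cells the difference was -0.15 at 0 h, -0.16 at 2 h (95% interval -0.41 to 0.09), -0.49 at 6 h and -0.62 at 12 h. The last 2 are 1.40-fold and 1.54-fold lower levels (adjusted p = 0.00524 and 6.96e-04 in limma), with -0.37 and -0.60 within the chips at 6 h, then -0.44 and -0.80 at 12 h. The difference in response was -0.01 at 2 h, -0.34 at 6 h and -0.47 at 12 h, of which only the last passed (adjusted p = 0.0398 in limma), and it was lost without any 1 of 9 arrays (adjusted p = 0.0501 to 0.165), with no filter on dim genes (0.0608) and in a fit of only the groups compared (0.0544). Zap70 also had a change of -0.46 in its Akti1/2 difference between 2 and 12 h (adjusted p = 0.0466 in limma), a call lost without any 1 of 13 arrays (adjusted p = 0.0571 to 0.185).

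**Figure D3:**
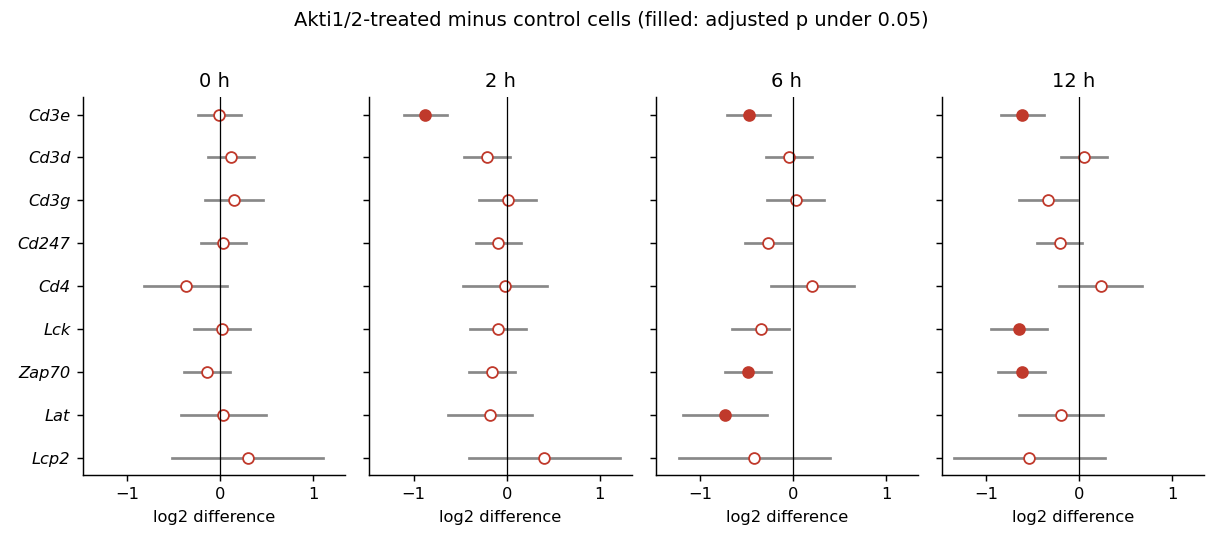
Log2 difference between Akti1/2-treated and control cells (horizontal axis, negative where Akti1/2-treated cells were lower) for the 9 genes at each time. Bars are 95% intervals from limma with 2 arrays a group, and filled points had an adjusted p under 0.05. No point is filled at 0 h, and the filled points are Cd3e at 2, 6 and 12 h, Zap70 at 6 and 12 h, Lat at 6 h and Lck at 12 h.

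Lat, the membrane scaffold that Zap70 phosphorylates, was lower with Akti1/2 at 6 h. At that time its arrays read 10.17 and 9.82 in control cells against 9.02 and 9.51 with Akti1/2, and at 12 h 9.68 and 9.87 in control cells against 9.30 and 9.87 with Akti1/2. The 6 h difference was -0.73, or 1.66-fold (SE 0.21, adjusted p = 0.0157 in limma), and was -1.15 and -0.31 within the 2 chips. It did not pass without 6 h control replicate 1 (adjusted p = 0.123) or 6 h Akti1/2 replicate 1 (adjusted p = 0.132). The difference in response at 6 h, -0.76, did not pass (adjusted p = 0.0895 in limma). From 2 to 6 h Lat fell by 0.63 with Akti1/2 (adjusted p = 0.0374 in limma), a call lost without any 1 of 5 arrays (adjusted p = 0.0502 to 0.287), and its 12 h difference was -0.20 (95% interval -0.65 to 0.26). In the order of the Lat group means, all 7 pairs of neighbors overlapped.

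Lcp2, which encodes the cytosolic adaptor SLP-76, was a dim gene at 1.40 to 2.78 times the mean negative control, and its arrays spread widely. Control cells read 5.98 and 6.45 at 0 h, 6.94 and 7.60 at 2 h, 7.69 and 7.27 at 6 h, then 6.92 and 6.70 at 12 h. In Akti1/2-treated cells the values were 6.43 and 6.58 at 0 h, 7.49 and 7.86 at 2 h, 6.35 and 7.78 at 6 h, then 6.46 and 6.09 at 12 h. Levels were above those at 0 h on both arrays at 2 h in both sets of cells. The rise in control cells at 6 h was 1.27 (SE 0.37, adjusted p = 0.0239 in limma), and it was lost without replicate 1 of the 0 h (adjusted p = 0.153) or 6 h control cells (0.144). At 2 h the rise was 1.17 with Akti1/2 (adjusted p = 0.0264 in limma), lost without either array of the 0 h Akti1/2 cells (0.107 and 0.0786) or replicate 2 of the 2 h ones (0.143), and 1.05 in control cells (adjusted p = 0.0945). Lcp2 passed no test between Akti1/2-treated and control cells, and without 6 h Akti1/2 replicate 2 its 6 h difference went from -0.42 (adjusted p = 0.412) to -1.13 (adjusted p = 0.0157 in limma), and without replicate 1 to 0.30.

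Counted over all 18 comparisons, calls fell 13 times on Cd3e, 9 on Zap70, 6 on Lck, 2 each on Lat and Lcp2, 1 each on Cd3d, Cd3g and Cd4, and 0 on Cd247. The 18 comparisons draw on the same 8 group means, so these counts are not separate observations. They are given without a matching count over all genes, of which 0.0541% to 49% were called in the single comparisons. In control cells 1, 3 and 1 members were called against 0 h at 2, 6 and 12 h, beside 10.3%, 27.5% and 27.8% of all genes. With Akti1/2 they were 4, 3 and 5, beside 38.6%, 33.3% and 44.5%. For the difference in response they were 1, 1 and 3 of 9, beside 8.41%, 19.5% and 32.5% of all genes, and all were lower with Akti1/2, as were 4.16%, 9.24% and 16.2% of all genes. Against calls in either direction, these shares of 9 genes lay near the background of their comparison or below it. Against lower calls alone, the members' shares in the difference in response (11.1%, 11.1% and 33.3%) were above the background, on 1, 1 and 3 genes. Between neighboring times, 0 (1 at an unadjusted p under 0.05) and 1 members were called in control cells by limma (beside 14.6% and 13.6% of all genes) and 2 and 1 with Akti1/2 (beside 30.2% and 17.8%), and the change of the Akti1/2 difference from 2 to 12 h was called for 2 (beside 31.4%). The Akti1/2 differences and the differences in response share arrays and are not separate observations of the same gene.

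The study ranked genes by a J5 score with a threshold set for each time. The score sets the difference of 2 mean untransformed intensities over its average size among all genes and has no error term. A threshold of 20, known only for the 2 h lists, was applied here at all times. With arrays scaled to a common 95th percentile, the CD3 genes passed it in control cells as Cd3g at 2 h (26.1) and Cd3e at 12 h (-20.7), where 0.673% and 0.645% of all genes passed, and none did at 6 h, beside 0.728%. None passed at 2 h with Akti1/2, beside 0.662%, and the later ones were Cd3e and Cd3g at 6 h (-20.2 and -20.6, beside 0.667% of all genes) and at 12 h (-21.0 and -36.0, beside 0.855%). The other 7 genes, Lck and Zap70 included, stayed within the threshold at all times, Cd3d reaching -17.7 at 2 h, Zap70 -10.7 and Lck -7.62 at 6 h with Akti1/2. The score rests on untransformed intensities, and the Cd3g change of 26.1 was 0.21 on the log2 scale (adjusted p = 0.366 in limma). Cd3e at 2 h with Akti1/2, 1.98-fold lower, had a score of -18.0.

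Over the 8 group means, Cd3e varied most like Lck among the other members (Pearson r = 0.836). Lck had r = 0.790 with Cd3g and 0.780 with Zap70, and Cd3g and Cd4 had r = -0.787. For Cd3e and Cd3d r was 0.314, and 0.548 with arrays scaled to the same mean. These correlations describe 8 points that share arrays and normalization. Of all tested genes, Ncaph2 and Atp2a3 had the means most like those of Cd3e (r = 0.986 for both). For Lck they were Pole4 and Rftn1 (0.990 and 0.988) and for Zap70 AI480653 and 4930504E06Rik (0.991 and 0.986). Pick1 and Fbxw5 came first for Cd3d (0.956 and 0.931), Ndufa8 and Hcfc1 for Cd3g (0.989 and 0.983), and LOC100047794 and Dcun1d5 for Cd247 (0.968 and 0.965). For Cd4 they were Mkln1 and Grik5 (0.948 and 0.937), for Lcp2 Ndufb5 and Scarb2 (0.969 and 0.959) and for Lat U2af2 and Rpl39 (0.960 and 0.948), of which Rpl39 had r = 0.190 with arrays scaled to the same mean.

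Around these 9 genes, other genes of the receptor pathway diverged in both directions with Akti1/2, as did called genes over the whole arrays. Of 60 listed genes, 53 were on the arrays and 36 were tested. At 0 h, 0 of the 36 were called in limma between Akti1/2-treated and control cells, and 1 had an unadjusted p under 0.05. In the difference in response, calls were made for 6, 7 and 17 genes at the 3 times, of which 3, 4 and 12 were higher and 3, 3 and 5 lower with Akti1/2. These are 16.7%, 19.4% and 47.2% of the list, beside 8.41%, 19.5% and 32.5% of all genes. Among all genes called in these comparisons, 50.5%, 52.7% and 50.2% were higher with Akti1/2. Without 0 h control replicate 1 the 2 h count was 3, and without 6 h Akti1/2 replicate 1 the 6 h count was 15. The medians of the list were 0.07, 0.13 and 0.17 at the 3 times, beside -0.01, -0.01 and -0.02 over all genes. With arrays scaled to the same mean they were 0.13, 0.15 and 0.11, beside 0.06, 0.05 and 0.04 over all genes. Genes are named as the 3 largest called differences in response in each direction at each time.

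The costimulatory receptor Cd28 rose with Akti1/2, by 1.37, 1.35 and 1.31 from its 0 h level (adjusted p = 6.30e-05, 4.57e-05 and 3.18e-05 in limma). Its control arrays read 9.79 and 9.80 at 0 h, then 9.85 and 9.71 at 12 h, and its Akti1/2 arrays 9.66 and 10.11 at 0 h, 11.27 and 11.24 at 2 h, then 11.37 and 11.01 at 12 h. All 6 Akti1/2 arrays from 2 h on lay above all other arrays of this gene. The difference in response was 0.87 at 2 h, 1.19 at 6 h and 1.32 at 12 h (adjusted p = 0.0321, 0.00308 and 7.83e-04 in limma), and the 2 h call was lost without any array of the 4 groups compared except 0 h Akti1/2 replicate 2 (adjusted p = 0.0502 to 0.112). Tec, a cytoplasmic tyrosine kinase, differed by -1.54 at 2 h (adjusted p = 0.00894 in limma), with arrays at 5.71 and 4.97 at 2 h with Akti1/2 against 6.70 and 6.71 in control cells. Tec lay near background, at 1.09 to 1.74 times the mean negative control, and 2 h Akti1/2 replicate 2 was not above it (detection p 0.0952). Its difference was -0.58 with quantile normalization without background correction and -0.41, no longer called, with arrays scaled to the same mean (adjusted p = 0.00613 and 0.0948 in limma).

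The named negative regulators did not move one way. Csk, the kinase that holds Lck inactive, fell with Akti1/2 from 11.82 and 11.94 at 0 h to 10.80 and 10.75 at 2 h, against 11.78 and 11.85 in the 2 h control cells, and its difference in response was -0.87 (adjusted p = 0.0112 in limma). Dok2, an inhibitory adaptor, differed by -1.01 at 6 h and -1.24 at 12 h (adjusted p = 0.00344 and 4.78e-04 in limma), and the inhibitory transmembrane adaptor Sit1 by -1.41 and -1.58 (adjusted p = 0.0204 and 0.00668). The Sit1 call at 6 h was lost without replicate 1 of either 0 h group or 6 h control replicate 2 (adjusted p = 0.0572 to 0.0751 in limma). Dgka, a kinase that removes the diacylglycerol signal, differed by 1.03 at 6 h and 1.09 at 12 h (adjusted p = 0.00598 and 0.00230 in limma). Both Sit1 and Dgka were dim, at 1.33 to 3.19 and 1.39 to 2.62 times the mean negative control, though above background on all 16 arrays. The adaptor Sh2d2a had differences of -0.81, -0.85 and -0.99 at the 3 times (adjusted p = 0.00991, 0.00254 and 4.62e-04 in limma).

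Downstream, Prkcq, the protein kinase C isoform of the T cell synapse, fell in control cells from 9.55 and 9.53 at 0 h to 8.27 and 8.12 at 12 h and read 9.10 and 9.02 with Akti1/2 at 12 h. Its difference in response at 6 h was 0.71 (adjusted p = 0.00598 in limma). Malt1, a protease of the complex that activates NF-κB, differed by 1.61 at 12 h (adjusted p = 0.0391 in limma), with 0.88 and 2.35 within the 2 chips, and was lost without any 1 of 6 arrays (adjusted p = 0.0502 to 0.125). Malt1 lay at 1.18 to 2.45 times the mean negative control, and 0 h Akti1/2 replicate 2 and 12 h control replicate 1 were not above background. Its difference was 0.60 with quantile normalization without background correction (adjusted p = 0.0682 in limma) and 0.64 with arrays scaled to the same mean (adjusted p = 0.0480), and with no filter on dim genes its call was lost (adjusted p = 0.0890). Stim1, the calcium sensor of the endoplasmic reticulum, differed by 0.93 at 2 h (adjusted p = 0.0149 in limma), a call lost without replicate 1 of either 0 h group or 2 h Akti1/2 replicate 2 (adjusted p = 0.0541 to 0.0612).

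**Figure D4:**
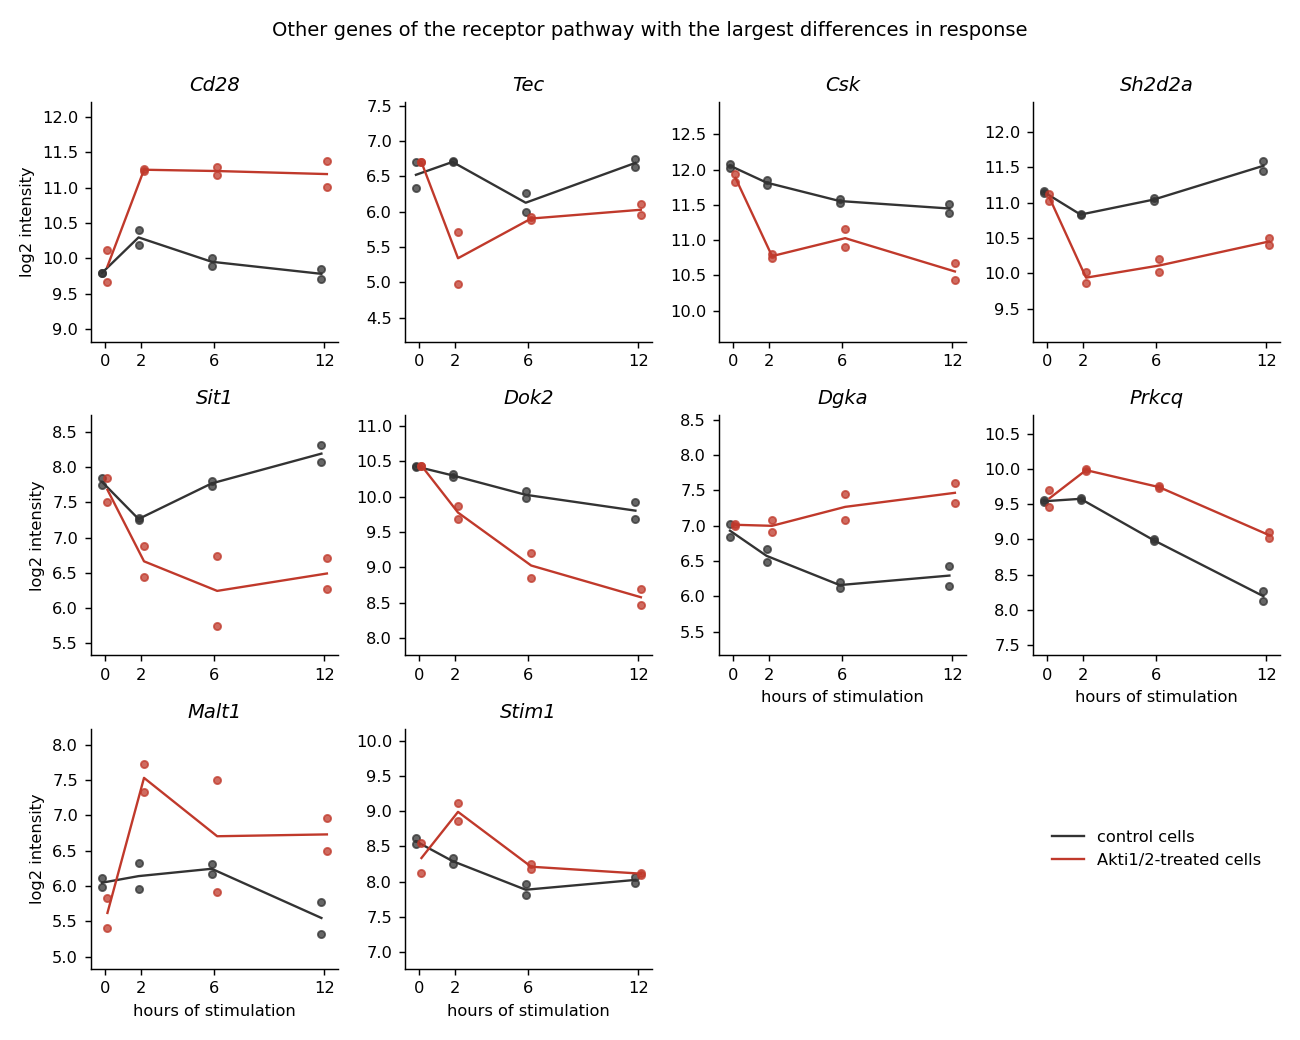
Log2 intensity (vertical axes) against hours of CD3/CD28 stimulation for the 10 pathway genes named by the size of their difference in response. Points are arrays and lines join the means of 2 arrays a group. Cd28, Dgka, Prkcq and Malt1 lie higher with Akti1/2 at 12 h, and Csk, Sh2d2a, Sit1, Dok2 and Tec lie lower.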

How the data were processed

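Bead intensities of 16 arrays on 2 Illumina mouse RefSeq8 chips, each with 1 array of every group, were summarized by the authors as 1 linear intensity per gene and array and deposited without normalization or background subtraction, per the file headers. The table covers 18138 genes and 798 negative controls, and 0 of its columns were left unmapped. A second, partial table of controls was left aside. The detection p of a gene was the share of negative controls as bright or brighter, and the 7395 genes below 0.01 on 2 or more arrays were tested. Median intensity was 119.4 to 148.6 per array and 6288 to 6907 genes were above background, and precision is limited by how few arrays there are. Values were normalized with neqc (offset 16) and fitted with all 8 groups in 1 model in limma 3.58.1 (R 4.3.3), with 8 residual and 4.26 prior degrees of freedom, and adjusted per comparison by the Benjamini-Hochberg method. Tables and plots used Python 3.11.15, numpy 2.4.6, pandas 2.3.3 and matplotlib 3.10.9. The limma fit was tested on simulated normalized values, and the background correction, normalization and filter were not part of that test.

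The members and lists were chosen with earlier results of these data known. Members were matched by symbol, and each has 1 entry, so that the transcripts of 1 gene are not separated. The Cd3d entry carries no gene identifier in the file. Names and positions are from RefSeq (GRCm38.p6). The genes named are the 9 members, the 3 largest called rises and falls of the pathway list in the difference in response at each time with 1 direction on both chips, any list gene called at 0 h, and the 2 genes most alike each member, except that 1 gene of the pathway list is not reported here by name. Alternatives were another background correction, scaling to the same mean, other filters on dim genes, a replicate or chip block, fits of only the groups compared, values within chips, and the omission of each array in turn, with the remaining array taken to vary as the other groups did. For the pathway list, all but the mean-scaled median were chosen after seeing the data.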

Additional observations from a re-analysis of the deposited data

Results flagged for a closer look

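By the interaction test in limma, the changes from 0 h given here were called different with and without Akti1/2. The values are log2 differences of these changes, in which stimulation and longer exposure to Akti1/2 cannot be told apart. For Cd3e they were -0.86 at 2 h, -0.46 at 6 h and -0.60 at 12 h, and at 12 h -0.67 for Lck and -0.47 for Zap70. Between 2 and 12 h, the Akti1/2 difference changed by -0.56 for Lck and -0.46 for Zap70. Of the pathway list, at 2 h they were 0.93 for Stim1, 0.87 for Cd28, -1.54 for Tec, -0.87 for Csk and -0.81 for Sh2d2a. At 6 h they were 1.19 for Cd28, 1.03 for Dgka, 0.71 for Prkcq, -1.41 for Sit1, -1.01 for Dok2 and -0.85 for Sh2d2a. At 12 h they were 1.61 for Malt1, 1.32 for Cd28, 1.09 for Dgka, -1.58 for Sit1, -1.24 for Dok2 and -0.99 for Sh2d2a. Of these, Cd3e at 6 h, Zap70 at 12 h and both changes of the Akti1/2 difference had an adjusted p between 0.0398 and 0.0499, the nearest to the threshold among the member results given here. All of these calls but that of Zap70 at 12 h were lost in most of the other fits. The Zap70 call at 12 h was lost in nearly as many fits as kept it. The calls of Lck and Malt1 at 12 h, of Stim1, Cd28 and Tec at 2 h, and of Sit1 at 6 h were each lost in fewer fits.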

How the results depend on the processing

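Of 162 member differences, 35 were called, where 0.0541% to 49% of all tested genes were called in the single comparisons. No share of all genes over the 18 comparisons together was computed. Of the 35, 16 were called under every other fit made, at most 23. In some fit 49 of the 127 not called changed sign, and no called difference did. With only the groups compared in the fit, 0 members were called at 2 h in control cells, 0 and 5 (Cd3e, Cd3g, Lck, Zap70 and Lcp2) at 6 and 12 h between Akti1/2-treated and control cells, and 0 and 5 at 6 and 12 h in the difference in response, where these 5 were Cd3e, Cd3g, Cd4, Lck and Lcp2 and Zap70 was not called (adjusted p = 0.0544 in limma). That fit also gave 0 from 6 to 12 h in control cells, 0 and 0 from 2 to 6 h and from 6 to 12 h with Akti1/2, and 0 for the change of the Akti1/2 difference. With no filter on dim genes the counts were 0 at 2 h in control cells, 2 at 2 h with Akti1/2 and 0 in the difference in response at 6 h. They were 0 from 2 to 6 h with Akti1/2 and 0 for the change of the Akti1/2 difference. In that fit both the adjustment and the shared estimate of spread covered more genes, and their parts were not separated. Scaling to the same mean gave 2 at 2 h between treated and control cells, 0 and 2 from 2 to 6 h and from 6 to 12 h with Akti1/2, and 0 for the change of the Akti1/2 difference. Quantile normalization without background correction gave 1 from 2 to 6 h and 2 from 6 to 12 h in control cells and 2 from 6 to 12 h with Akti1/2, where genes detected on all 16 arrays also gave 2. With the chip as a block the counts were 0 at 2 h in control cells, 0 in the difference in response at 6 h and 1 for the change of the Akti1/2 difference. With the replicate number as a block, the difference in response at 6 h had 0 members called in place of 1 (Cd3e, adjusted p = 0.0609 in limma). No other member count moved by over 1.5 times with that block, and no block was used in the fit reported. Same-numbered arrays mostly shared a chip as well, the 12 h control arrays excepted, and those of 2 groups had deviations correlated at r = -0.296 to 0.264, over 0.1 in 7 of 28 pairs. The cause was not tested for the other settings.

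Leaving out each array in turn, the counts against 0 h at 2, 6 and 12 h ranged from 0 to 2, 0 to 3 and 1 to 1 in control cells and from 1 to 4, 3 to 5 and 5 to 5 with Akti1/2. Between treated and control cells at 0, 2, 6 and 12 h they were 0 to 0, 1 to 1, 2 to 4 and 3 to 4, and in the difference in response 1 to 1, 0 to 2 and 1 to 4. Between neighboring times they were 0 to 0 and 0 to 1 in control cells and 0 to 3 and 0 to 3 with Akti1/2, and for the change of the Akti1/2 difference 0 to 1. The counts of the pathway list were 3 to 9, 5 to 15 and 12 to 19 at 2, 6 and 12 h, and quantile normalization without background correction gave 10 and 11 at 2 and 6 h and scaling to the same mean 13 at 6 h. Members past a J5 score of 20 with arrays scaled to the same mean were 2 at 2 h (Cd3e and Cd3d) and 0 at 6 h with Akti1/2. With the denominator over genes above background, control cells had 0 at 2 and 12 h, and Akti1/2-treated cells 0 at 6 and 12 h. Scaling to the same mean moved the median of all genes by under 0.1 in each comparison. It moved the share of higher calls over all genes from 43% to 28.3%, 44% to 32.8% and 52.7% to 67.5% in control cells at 2 and 6 h and in the difference in response at 6 h. Cd4, Lcp2, Tec, Malt1, Sit1 and Dgka lay near background, where small intensity differences become large on the log2 scale.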
